A study of Oryza sativa with 6 samples.

Results

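Kinesins are motor proteins that hydrolyse ATP and walk along microtubules. Land plants have an enlarged kinesin family. In dividing plant cells kinesins help to build the mitotic spindle and the phragmoplast, the array of microtubules that directs the new cell wall, while in non-dividing cells other members act in cell shape and transport. The genes described here carry a rice kinesin name, KIN followed by a subfamily number and a letter, or the name NACK, as symbol or synonym. Of 35 such genes in the rice gene table, 32 were paired with a probe set of the array, through 36 probe sets that each named 1 gene, out of 22436 probe sets naming 1 gene and 57258 tested in all. KIN14D, KIN14P and KIN12F had no paired probe set and are not analysed here. By subfamily the probe sets fell as 1 for kinesin-4, 2 for kinesin-5, 7 for kinesin-7, 2 for kinesin-8, 3 for kinesin-10, 2 for kinesin-12, 3 for kinesin-13 and 16 for kinesin-14. Names came from the gene tables and not from these measurements.

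The study compared 3 samples of CHR729 T-DNA mutant seedlings with 3 samples of wild-type seedlings of the rice cultivar Hwayoung, 1 Affymetrix array per sample. CHR729 encodes a CHD-type chromatin remodelling protein. All seedlings were 11 days old and were raised on sucrose-containing agar in long days. The labels call the samples biological replicates. They describe 1 insertion allele, name the cultivar for the wild type only, and do not say how many seedlings made up a sample or whether the insertion removes the transcript. The transcript of CHR729 itself is not analysed here, because the annotation tables gave it no probe set. The tissue is given only as seedling, and in such bulk material fewer cells of a type and less RNA per cell cannot be told apart. Transcripts listed as leaf markers and as root markers were both measured. CAB2R, a chlorophyll-binding protein gene, averaged 11588 ± 580 in the mutant and 11217 ± 289 in wild type (SD, n = 3 each; the brighter of its probe sets). OsPht1;1 is a phosphate transporter gene on the root marker list. Its brighter probe set averaged 1552 ± 82.4 in the mutant and 2339 ± 232 in wild type. Whether that signal came from roots alone was not tested. Lsi1, also on the root list, averaged 306 ± 23.7 in the mutant and 342 ± 19.5 in wild type. Many of the other root marker probe sets, such as those of IRT1, NAS1 and Lsi2, lay below the array medians.

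Values are MAS5 signals, brightness on a linear scale in arbitrary units. Array medians lay between 67.6 and 71.1. Brightness also depends on the probes, so a signal is set against the array medians and the same probe set on other arrays, and never against another gene. Differences are mutant minus wild type on the scale log2(signal + 32), with the standard error (SE) of a limma model fitted to all tested probe sets, and adjusted p is the Benjamini-Hochberg value over all of them. A gene is said to rise or fall only where adjusted p was under 0.05. Folds are antilogs of these differences, so the added 32 makes them smaller than plain ratios for dim probe sets. Precision is limited by the small number of samples, 3 in each genotype.

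Most kinesin probe sets were brighter than the array medians, as were most probe sets naming 1 gene. In 33 of the 36 kinesin probe sets, from 31 of the 32 genes, the brighter genotype averaged at or above the array medians. The same held for 17212 of the 22436 probe sets naming 1 gene. The 3 dimmer ones belonged to KIN14B and to second probe sets of KIN8B and KIN14K. For KIN14B the signals were 30.1, 27.9 and 41.4 in mutant samples and 31.9, 34.2 and 23.9 in wild-type samples. The groups overlapped, and the level stayed below the median of every array.

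In the mutant 13 kinesin genes rose and none fell. They were KIN5C, KIN7A, KIN7F, KIN7K, KIN7L, KIN10A, KIN10B, KIN12C, KIN12E, KIN14E, KIN14N, KIN14Q and KIN14R, with log2 differences from 0.33 to 0.63. These rises are modest, between 1.26-fold and 1.55-fold on the log2(signal + 32) scale. The 13 calls are 36.1% of the 36 kinesin probe sets, and 9.96% of all probe sets naming 1 gene were called higher. Over all 57258 tested probe sets, 5.48% were called higher and 4.42% lower. Among 1-gene probe sets at or above the array medians the share called higher was 12.2%, and 13 of 33 kinesin probe sets at that brightness is 39.4%. No kinesin was called lower by limma, where 8.16% of probe sets naming 1 gene were. At an unadjusted p under 0.05 the kinesin counts were 17 higher (47.2%) and 1 lower (2.78%), against 18.8% higher and 17.1% lower of all probe sets naming 1 gene. The median log2 difference of the 36 probe sets was 0.20, against 0.01 over all probe sets naming 1 gene. With mutant replicate 2 left out 5 kinesins rose, with wild-type replicate 2 left out 6, and with mutant replicate 3 left out 7. The count over all probe sets was lower in these fits too, at 4.30%, 5.46% and 5.48% of those naming 1 gene. KIN5C, KIN7A, KIN7L, KIN10B and KIN14N passed with every sample left out in turn.

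**Figure D1:**
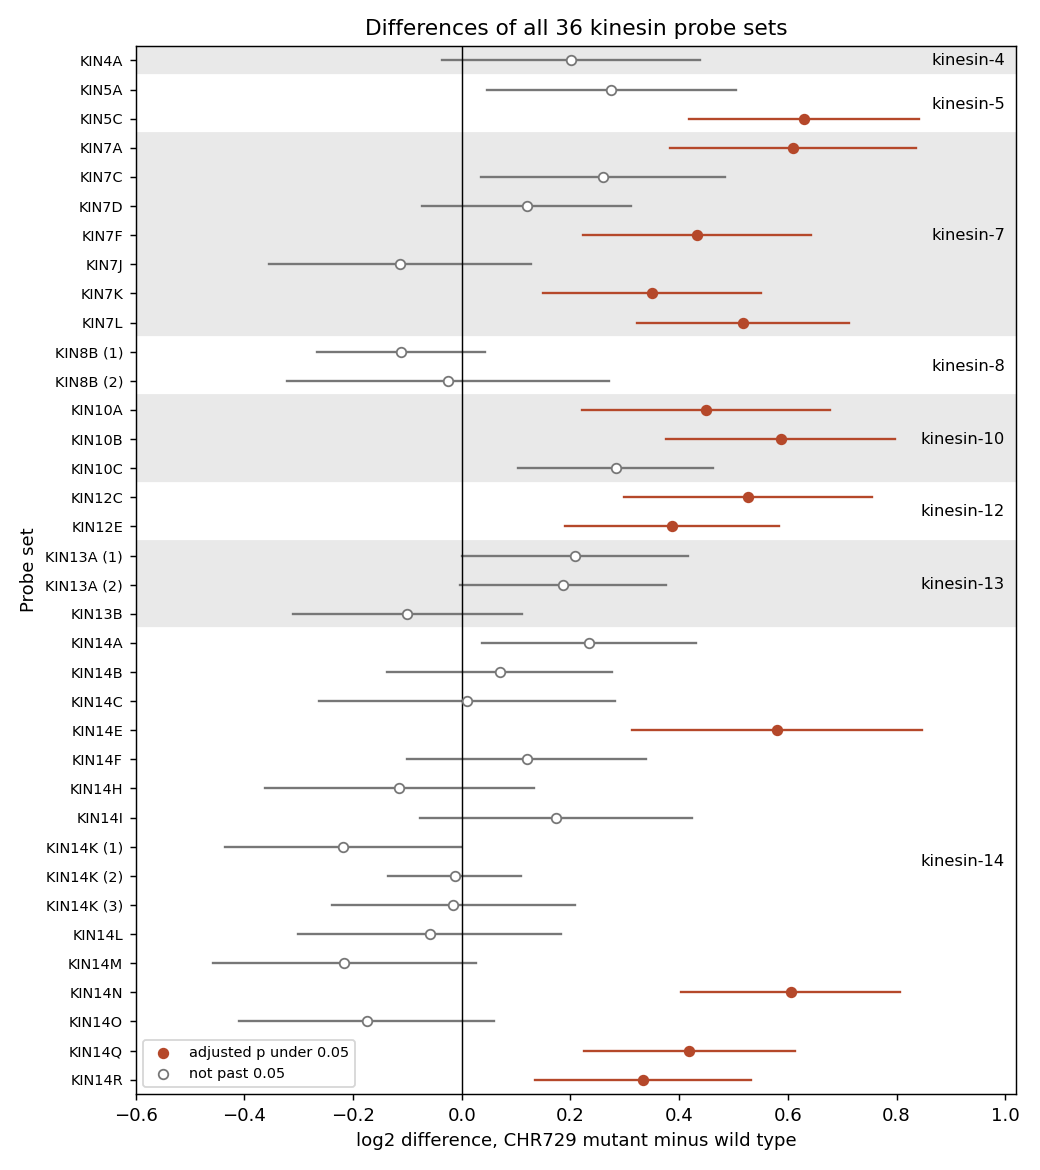
Log2 difference (mutant minus wild type, horizontal axis) of each of the 36 kinesin probe sets, grouped by subfamily down the page, with 95% confidence intervals from the limma model. Filled points passed adjusted p under 0.05; all 13 lie right of 0, and the kinesin-14 members spread from -0.22 to 0.61. Numbers in brackets separate probe sets of 1 gene.

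The mutant and wild-type signals did not overlap in 20 kinesin probe sets, each time with the mutant above. That is 55.6% of them, where 21.6% of all probe sets naming 1 gene had the mutant above without overlap. The reverse arrangement, mutant below without overlap, was found in 0 kinesin probe sets, against 18.8% of all probe sets naming 1 gene. These 20 include all 13 that rose, and 7 that did not pass, namely KIN5A, KIN7C, KIN7D, KIN10C, KIN14A and both probe sets of KIN13A.

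Kinesin-5 motors are tetramers that cross-link and slide apart spindle microtubules. KIN5C had signals of 631, 661 and 688 in mutant samples, against 456, 386 and 406 in wild-type samples. The lowest mutant sample was 1.39 times the highest wild-type sample. The log2 difference of 0.63 (SE 0.10, adjusted p = 0.00303) was the largest in the family. KIN5A, the other measured member, had 162, 160.0 and 198 in the mutant and 154, 126 and 132 in wild type. Its groups were separate by a narrow margin and its difference of 0.28 did not pass (SE 0.10, adjusted p = 0.139).

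Kinesin-7 includes the NACK motors, which in tobacco and Arabidopsis activate a MAP kinase cascade at the phragmoplast so that the cell plate can expand. The rice gene listed with the NACK name is KIN7A, also named OsNACK and DBS1. It had signals of 207, 234 and 242 in mutant samples and 159, 127.7 and 128.3 in wild-type samples. The lowest mutant array stood at 1.299 times the highest wild-type array, and the gene rose by 0.61 (SE 0.10, adjusted p = 0.005). KIN7L had 128.5, 142 and 146 in the mutant, against 91.8, 77.1 and 92.8 in wild type. All 3 mutant samples were clearly above the wild-type range, with a rise of 0.52 (SE 0.09, adjusted p = 0.00543). KIN7F had 388, 372 and 408 in the mutant and 304, 284 and 255 in wild type, a rise of 0.43 (SE 0.09, adjusted p = 0.017). KIN7K had 477, 472 and 438 in the mutant and 363, 371 and 333 in wild type, a rise of 0.35 (SE 0.09, adjusted p = 0.0345). The KIN7F and KIN7K groups were separate as well, but both calls rested on the full set of samples. KIN7F missed the threshold without any 1 of the mutant samples or without wild-type replicate 2, and KIN7K did so without any sample other than wild-type replicate 1, with adjusted p up to 0.160.

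The other kinesin-7 genes did not pass. KIN7C had 574, 588 and 589 in the mutant and 552, 456 and 445 in wild type. Wild-type replicate 1 nearly reached the mutant level, and the difference was 0.26 (95% interval 0.03 to 0.49, adjusted p = 0.156). Without that sample KIN7C passed, with adjusted p = 0.0417. KIN7D, at 696, 703 and 737 in the mutant and 652, 679 and 629 in wild type, had a difference of 0.12 (95% interval -0.07 to 0.31). KIN7J was the 1 kinesin-7 gene with a negative difference, at 224, 213 and 202 in the mutant and 269, 236 and 198 in wild type. Its groups overlapped, with a difference of -0.11 (95% interval -0.35 to 0.13).

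Kinesin-10 and kinesin-12 hold motors that plants place on the phragmoplast. KIN10A, also named STD1 after the rice stemless dwarf mutant, had 246, 248 and 296 in mutant samples and 205, 175 and 173 in wild-type samples. It rose by 0.45 (SE 0.10, adjusted p = 0.0205). KIN10B had 218, 235 and 245 in the mutant and 148, 128.1 and 158 in wild type, a rise of 0.59 (SE 0.10, adjusted p = 0.00426). In both genes every mutant sample exceeded every wild-type sample, by at least 1.20 times for KIN10A and 1.38 times for KIN10B. KIN10C had the same arrangement, with 185, 193 and 198 in the mutant and 154, 155 and 147 in wild type, but its smaller difference of 0.28 (SE 0.08) lay just outside the threshold at adjusted p = 0.0527.

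Arabidopsis kinesin-12 proteins sit at the phragmoplast midline or mark the division plane. KIN12C had signals of 452, 465 and 484 in the mutant, against 359.6, 305 and 282 in wild type, and rose by 0.53 (SE 0.10, adjusted p = 0.01). KIN12E had 131, 146 and 149 in the mutant and 112, 98.9 and 92.3 in wild type, and rose by 0.39 (SE 0.09, adjusted p = 0.0208). Both measured kinesin-12 genes thus rose, with wild-type replicate 1 the closest to the mutant each time. KIN12C missed the threshold without mutant replicate 2 (adjusted p = 0.0559). KIN10A and KIN12E missed it when mutant replicate 2, mutant replicate 3 or wild-type replicate 2 was left out.

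**Figure D2:**
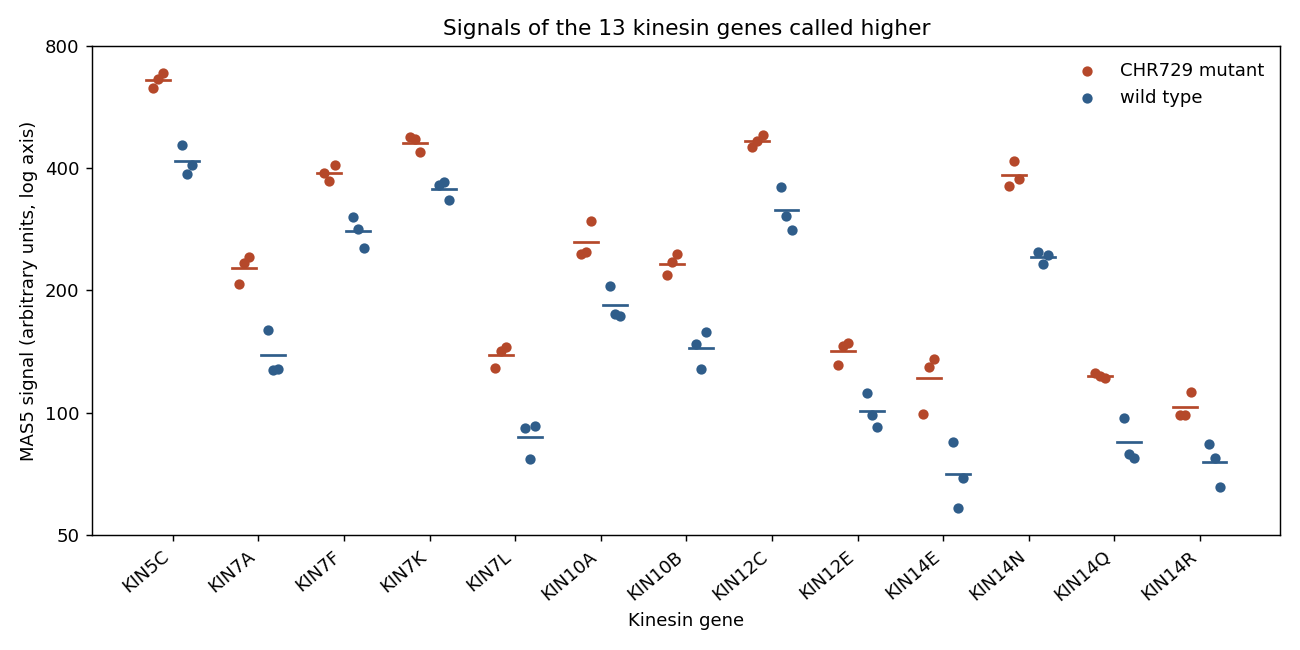
MAS5 signals (vertical axis, log scale, arbitrary units) of the 13 kinesin genes that rose, with 1 point per sample and a bar at the mean of 3 samples, mutant left of wild type. No mutant point lies at or below a wild-type point of its gene; the narrowest gap is 1.17 times, in KIN14E and KIN12E.

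Kinesin-14 motors walk towards the minus end of microtubules, whereas most other kinesins walk towards the plus end. Of the 14 measured kinesin-14 genes 4 rose. These calls are 25.0% of the 16 kinesin-14 probe sets, against 9.96% of all probe sets naming 1 gene. Differences were positive in 9 of the 16 (56.25%, against 51.3% of all) and negative in 7, with a median of 0.04. Every KIN14K probe set was among the negative ones. KIN14N had 361, 417 and 376 in mutant samples and 249, 232 and 244 in wild-type samples. The rise of 0.61 (SE 0.09, adjusted p = 0.00293) had the lowest p and the widest separation of any kinesin, the lowest mutant sample being 1.45 times the highest wild-type sample. KIN14E had 99.3, 129.6 and 136 in the mutant and 84.9, 58.1 and 69.2 in wild type. Its rise of 0.58 (SE 0.12, adjusted p = 0.0132) had the largest SE of the 13, and mutant replicate 1 lay nearest to the wild-type samples. KIN14Q, also known as OsKCH1, a kinesin with a calponin homology domain that binds actin as well as microtubules, had 125, 122.9 and 122.0 in the mutant and 97.2, 79.0 and 77.3 in wild type. The mutant samples lay close together, and the gene rose by 0.42 (SE 0.09, adjusted p = 0.0139). KIN14R had 98.9, 98.8 and 112 in the mutant and 83.5, 77.5 and 65.4 in wild type, a rise of 0.33 (SE 0.09, adjusted p = 0.0408). That call was the weakest, lost without any sample other than wild-type replicate 1, with quantile normalization and with median subtraction. KIN14E was lost without mutant replicate 2, mutant replicate 3 or wild-type replicate 2. KIN14Q was lost when replicate 2 of the mutant or of wild type was left out.

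The remaining kinesin-14 genes did not pass. KIN14A had 125, 121 and 125 in the mutant and 112, 103 and 87.7 in wild type, separate groups with a difference of 0.23 (95% interval 0.04 to 0.43, adjusted p = 0.144). KIN14I is the calmodulin-binding kinesin KCBP, known in Arabidopsis for its part in trichome shape. It had 379, 362 and 396 in the mutant, and 368, 359 and 277 in wild type. Wild-type replicate 3 stood low while the other samples mixed, and the difference was 0.17 (95% interval -0.08 to 0.42). KIN14C had 594, 655 and 622 in the mutant and 726, 638 and 511 in wild type. The wild-type samples alone spanned the whole mutant range, so the difference of 0.01 had a 95% interval of -0.26 to 0.28. KIN14M had 109, 121 and 120.0 in the mutant and 168, 140.2 and 117 in wild type, with overlap and a difference of -0.22 (95% interval -0.46 to 0.03, adjusted p = 0.289). KIN14F had 182, 174 and 171 in the mutant and 184, 155 and 140.1 in wild type, with a difference of 0.12. KIN14H had 323, 293 and 308 in the mutant and 382, 349 and 284 in wild type, with a difference of -0.11. In both genes the wild-type samples enclosed all mutant samples. KIN14L had 347, 324 and 299 in the mutant and 375, 352 and 291 in wild type, the same arrangement with a difference of -0.06. KIN14O had 157, 145 and 182 in the mutant and 169, 211 and 179 in wild type, with partial overlap and a difference of -0.17 (adjusted p = 0.394).

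KIN14K was read by 3 probe sets, of which 2 carry the Affymetrix suffix _x_at, used where some probes may match other transcripts. The first of these had 104, 99.0 and 114 in the mutant and 140.4, 136 and 109 in wild type, with a difference of -0.22 (SE 0.10, adjusted p = 0.22). It is the 1 kinesin probe set lower at an unadjusted p under 0.05. The second had 136, 148 and 144 in the mutant and 161, 154 and 122 in wild type, with a difference of -0.02. The third, without the suffix, was near the bottom of the scale, at 7.11, 6.84 and 7.97 in the mutant and 8.44, 9.18 and 5.46 in wild type. None separated the genotypes, and the dim probe set stood far below the array medians while the others were above them.

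Kinesin-13 proteins disassemble microtubule ends in animals, and rice KIN13A is SRS3, a gene whose loss gives small round seeds. It was read by a pair of probe sets. One gave 402, 399.9 and 356 in mutant samples and 339, 344 and 306 in wild-type samples, and the other 456, 461 and 446 in the mutant and 413, 389.6 and 384 in wild type. Both kept the mutant above wild type by a small margin, with differences of 0.21 (adjusted p = 0.226) and 0.19 (adjusted p = 0.236) that did not pass. KIN13B, read only by an _x_at probe set, had 545, 555 and 601 in the mutant and 647, 559 and 627 in wild type. Its groups overlapped, with a difference of -0.10 (95% interval -0.31 to 0.11).

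KIN4A and KIN8B complete the family. KIN4A, also named GDD1, is a kinesin-4 gene that in rice is needed for ordered cell wall cellulose and for gibberellin-dependent height. It had 744, 685 and 775 in the mutant and 727, 607 and 578 in wild type. Wild-type replicate 1 fell inside the mutant range, and the difference was 0.20 (95% interval -0.04 to 0.44, adjusted p = 0.321). Kinesin-8 motors shorten microtubule plus ends in yeast and animals. The brighter KIN8B probe set, an _x_at one, had 359.8, 338 and 359 in the mutant and 288, 447 and 357 in wild type, where the wild-type samples again enclosed the mutant ones. Its dim partner had 12.4, 8.74 and 11.5 in the mutant and 10.2, 16.8 and 16.2 in wild type. Neither KIN8B probe set passed, with adjusted p = 0.946 for the brighter and 0.411 for the dim one.

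Samples of 1 genotype also differed from each other in a way that many kinesins shared. Among the wild-type samples, replicate 1 was the highest in 25 of 36 kinesin probe sets, which is 69.4%, against 41.3% of all probe sets naming 1 gene. Wild-type replicate 3 was the lowest in 25 of 36, against 33.0% of all. Among the 23 kinesin probe sets that did not pass, replicate 3 was the lowest in 18 and the highest in 0. Summed over the 36 probe sets the signal was 10418, 10525 and 10844 in mutant samples and 9745, 9055 and 8343 in wild-type samples. Among the mutant samples, replicate 3 was the highest in 21 of 36, or 58.3%, against 32.2% of all, and in 10 of the 13 that rose. The median SD of log2(signal + 32) was 0.07 in the mutant and 0.13 in wild type for kinesins, against 0.08 and 0.12 over all probe sets naming 1 gene. The SD was larger in wild type for 29 of 36 kinesin probe sets, or 80.6%, against 65.4%. This pattern was looked for after the values were seen, probe sets of 1 array are not independent, and no test was made of it.

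**Figure D3:**
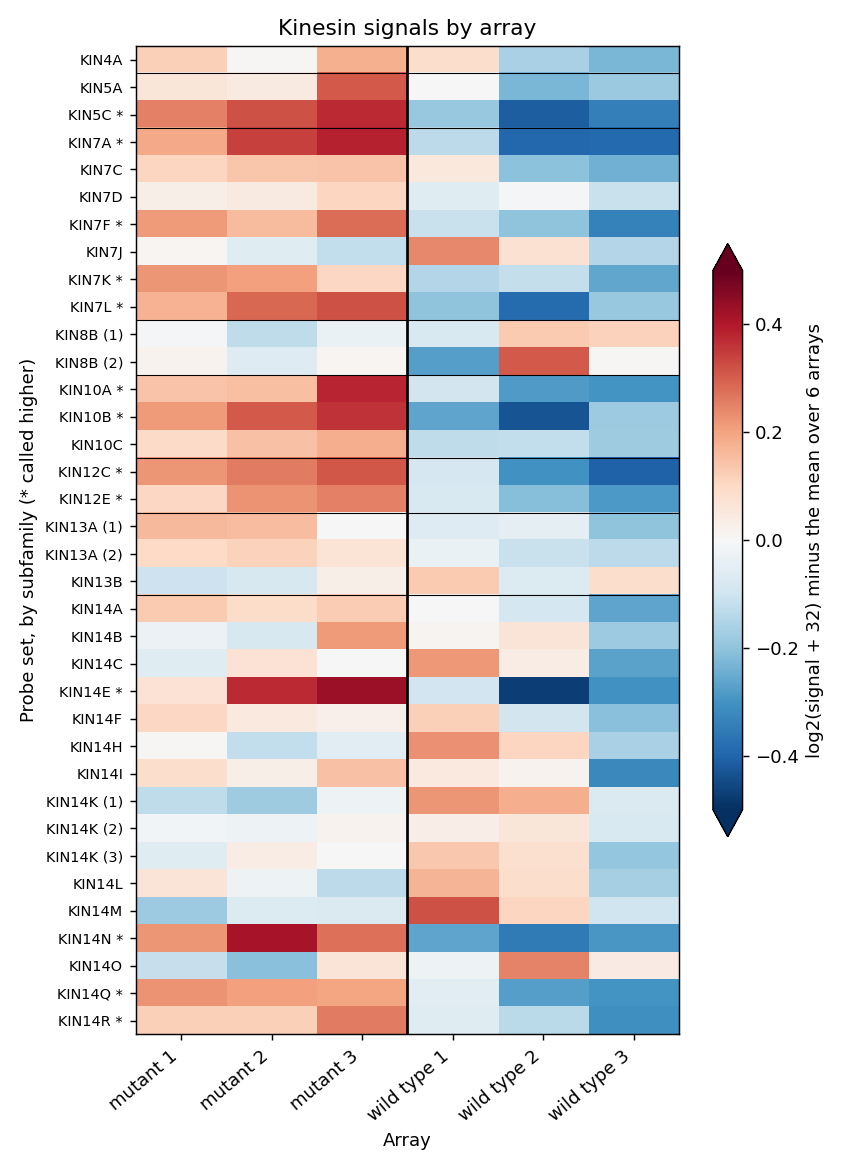
Colour shows log2(signal + 32) of each kinesin probe set on each array minus its mean over the 6 arrays (red above, blue below), with mutant arrays left of the vertical line and wild-type arrays right. Rows with an asterisk are the 13 that rose; wild-type column 3 is blue in most rows, while in wild-type column 1 many rows that did not pass are red.

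Other genes of division and of the cytoskeleton were listed by symbol for comparison, and their counts stand beside 9.96% called higher and 8.16% called lower among all probe sets naming 1 gene. Of 25 probe sets of DNA replication genes 14 rose (56.0%) and none fell, with 1 lower at an unadjusted p under 0.05 and a median log2 difference of 0.44. OsRPA32, a single-strand binding protein gene, had 442, 461 and 461 in the mutant and 271, 224 and 266 in wild type. OsPCNA, the sliding clamp gene, had 982, 1208 and 1047 in the mutant and 675, 535 and 604 in wild type. ORC4 of the origin recognition complex had, in 1 of its probe sets, 237, 274 and 233 in the mutant and 117, 93.1 and 143 in wild type. All mutant samples of these genes were above all wild-type samples, and the rises were 0.77 for OsRPA32, 0.80 for OsPCNA and 0.91 for ORC4. The dimmer ORC4 probe set had 0.24 and did not pass (adjusted p = 0.0735). Of 16 probe sets listed as mitotic cyclins and kinases 8 rose (50%) and none fell (0 lower at an unadjusted p under 0.05), with a median of 0.30. With mutant replicate 2 left out 3 of them passed, and with mutant replicate 3 left out 5. In the replication list the count was 9 with replicate 2 of the mutant left out, and also 9 in a separate fit with replicate 2 of wild type left out. The 8 mitotic probe sets that rose with all samples include both of CYCB2 (LOC4342121), by 0.94 and 0.74, and that of CYCA2-1, by 0.67. CDC25.1 and CDC25.2, which the symbol match took in and which are known as phosphatase-type genes, had -0.13 and 0.11 and did not pass. CenH3, the centromeric histone gene and the 1 match for kinetochore genes, rose by 0.66 (SE 0.09, adjusted p = 0.00166).

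Tubulins are the subunits of the track on which kinesins move. Of 19 tubulin probe sets 1 rose and none fell (0 lower at an unadjusted p under 0.05), a share of 5.26% against 9.96% of all probe sets naming 1 gene, with a median of 0.05. The riser was TUB2, a beta-tubulin gene, with 2194, 2447 and 2294 in the mutant and 1413, 1255 and 1403 in wild type, a log2 difference of 0.76 (SE 0.09, adjusted p = 0.000872). TubA (LOC4343694) and the brighter probe set of TUB1, next in p, had 0.25 each and did not pass. With wild-type replicate 3 left out both passed (adjusted p = 0.0388 and 0.0403), and the tubulin count was then 3. Another gene named TubA, LOC4350197, had 0.09, -0.03 and 0.02 in its probe sets, and the dim TUB1 probe set had 0.01. None of these passed. Of 7 probe sets for microtubule-associated proteins 1 fell and none rose (0 higher at an unadjusted p under 0.05). MAP70.4 fell by 0.40 (SE 0.11, adjusted p = 0.0448), a call lost with quantile normalization, with array weights, with the replicate block and without any sample other than wild-type replicate 1, while MAP70.1 and MAP70.3 had 0.18 and 0.10. Actin, formin and actin-depolymerizing factor genes had 5 of 30 probe sets higher (16.7%, against 9.96% of all) and 3 lower (10.0%, against 8.16%), with a median of 0.03. Among them ACT7 fell by 0.47, ACT1 rose by 0.41 and ADF11 rose by 0.62. In these 6 lists together 33 probe sets passed, counting both directions. The count was 14 with mutant replicate 2 left out, 19 with wild-type replicate 2 left out and 20 with mutant replicate 3 left out. Over all 57258 tested probe sets the higher calls went from 3140 (5.48%) to 1358, 1779 and 1716 in the same fits. The lower calls went from 2532 (4.42%) to 916, 1356 and 1071. In the actin list 0 passed without mutant replicate 2, against 8 with all samples. No probe set matched the names listed for partner kinases and other phragmoplast proteins.

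**Figure D4:**
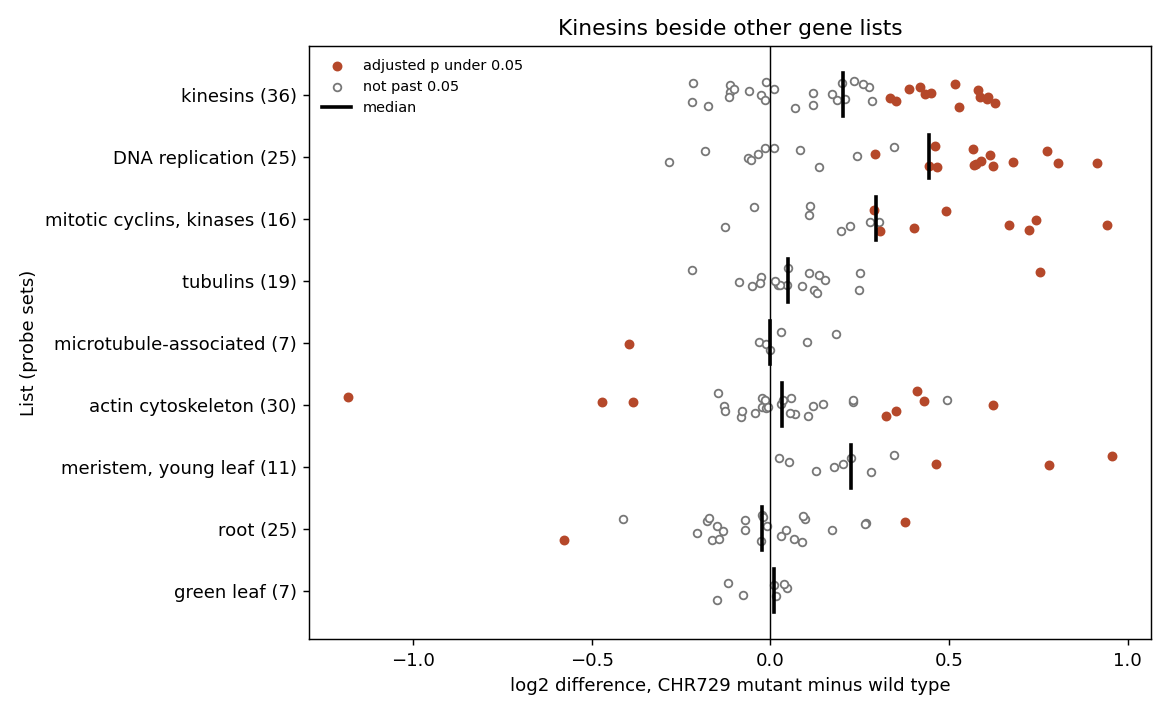
Log2 difference (mutant minus wild type, horizontal axis) of every probe set in the kinesin list and in 5 cytoskeleton and division lists and 3 tissue marker lists, with filled points past adjusted p under 0.05 and a bar at the median of each list. The medians are 0.20 for kinesins, 0.44 for replication, 0.30 for mitotic cyclins and kinases and 0.05 for tubulins.

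Markers of tissues that contribute to a whole seedling were read beside the kinesins. Of 11 probe sets for shoot meristem and young leaf genes 3 rose (27.3%, against 9.96% of all probe sets naming 1 gene) and none fell, all 11 had positive differences (51.3% of all did), and 0 were lower at an unadjusted p under 0.05. Their summed signal was 2661 to 2784 in mutant samples and 2008 to 2348 in wild-type samples. OSH1, a homeobox gene of the shoot meristem, rose by 0.96 in its dimmer probe set and by 0.78 in its brighter one. The dimmer had 82.0, 90.7 and 80.4 in the mutant, above the array medians, and 38.3, 20.4 and 26.4 in wild type, below them. The brighter, an _x_at one, had 133, 136 and 127 in the mutant and 72.5, 51.2 and 68.2 in wild type. OsYAB5 rose by 0.46. With wild-type replicate 3 left out 5 passed, and the OsYAB5 call was lost without any 1 of the mutant samples or without wild-type replicate 1. Root markers had 1 of 25 higher, OsSCR1 by 0.38, and 1 lower, the brighter OsPht1;1 probe set with a log2 difference of -0.58. That is a share of 4.0% each way, against 9.96% higher and 8.16% lower of all probe sets naming 1 gene. The median root difference was -0.02, with 10 positive and 15 negative. Their summed signals were 3635 to 4155 in the mutant and 4723 to 5041 in wild type. Without that 1 OsPht1;1 probe set the sums overlapped, at 2173 to 2581 in the mutant and 2446 to 2620.3 in wild type. The dimmer OsPht1;1 probe set went the other way, at 0.27, and did not pass (adjusted p = 0.119). OsPht1;8, next in p, had -0.41 in its dimmest probe set (adjusted p = 0.0551), which passed as lower in 4 of the 14 alternative settings. Its brighter probe sets had -0.21 and -0.13 with overlapping groups and did not pass (adjusted p = 0.362 and 0.614). OsSCR1 missed the threshold when mutant replicate 2 or mutant replicate 3 was left out. Green leaf markers had 0 of 7 past the threshold, with 0 at an unadjusted p under 0.05 in either direction and summed signals of 40977 to 45141 in the mutant and 42285 to 44580 in wild type. The lowest single signals were 9.58 among root markers and 9.70 among green leaf markers. Detection calls were not used, so whether such dim markers were detected is unknown. The part of these tissue markers, and of the wild-type differences between samples, in the kinesin rises was not tested.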

How the data were processed

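Seedling RNA from 6 samples was hybridized to Affymetrix Rice Genome Arrays. The authors deposited 1 linear intensity per probe set and array, computed with MAS5 per the submitters' processing notes. No source used here gives its version, background or scaling settings, and detection calls were not used. After 123 AFFX control probe sets were left out of 57381, log2(signal + 32) was fitted in limma 3.58.1 (R 4.3.3; lmFit, eBayes with trend, 2-sided) with Benjamini-Hochberg adjustment over 57258 probe sets, and no filter on dim probe sets. Tables were joined in pandas 2.3.3 (Python 3.11.15) and drawn in matplotlib 3.10.9. The procedure was tested on simulated data.

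Probe sets were named through the array's public annotation and the rice gene table of assembly ASM3414082v1, by symbol or synonym. Every kinesin probe set could be named, and from each comparison list the 3 probe sets with the lowest p. CAB2R, the CDC25 genes, IRT1, NAS1, Lsi1, Lsi2 and the dimmer ORC4 and OsPht1;1 probe sets were singled out after their values were seen. The root marker sum without its brightest probe set was also added then. The kinesin members and the lists were chosen with earlier results of these data known, and counts are not tests of a list. The smallest 2-sided p of a permutation of 3 against 3 arrays is 0.1, so none was used.

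Alternatives were a smaller and a larger offset, quantile normalization, median subtraction, leaving out the 40% dimmest probe sets, no trend, array weights, the replicate number as a block, and each array left out. Promoter and protein sequences are not analysed here.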

Additional observations from a re-analysis of the deposited data

How the results depend on the processing

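Of the 13 kinesin rises 5 passed in all 14 alternative settings and 8 were lost in 1 or more, and no kinesin was called lower in any. With 1 array left out at a time the kinesin count ran from 5 to 14, the division and cytoskeleton lists, without the tissue markers, from 14 to 35 called probe sets, and all probe sets from 1358 to 3511 higher and from 916 to 2838 lower. In the other settings the kinesin count stayed between 11 and 14, and the brightest probe set per gene gave 13 genes. KIN10C passed in 4 settings (larger offset, without dim probe sets, no trend, array weights). The labels give no pairing of the samples by replicate number. Correlations of same-numbered deviations were 0.01, -0.17 and 0.09, and those of differently numbered ones ran from -0.15 to 0.16. With 3 samples per genotype these values cannot show whether the samples were paired. With the replicate number as a block 11 kinesins were higher, KIN7K and KIN14R being lost. In that fit 2730 of all tested probe sets were higher and 2385 lower. Signs turned only in differences near 0 that did not pass. KIN14C had -0.000399 with median subtraction. Without 1 array in turn, KIN14C ranged from -0.12 to 0.12, KIN14B from -0.019 to 0.13, KIN14L from -0.16 to 0.011, the brighter KIN8B probe set from -0.17 to 0.12, the dim and the second _x_at KIN14K probe sets from -0.054 to 0.014 and from -0.12 to 0.048, and 2 OsrbcS probe sets from -0.21 to 0.052 and from -0.17 to 0.046. Their cause was not tested. Detection limits are unknown without detection calls.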
